A study of Mus musculus with 6 samples.

Results

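The genes described here encode proteins that copy DNA in S phase and divide the chromosomes in mitosis. They were chosen by name, 33 in all, and each was read from the brightest probe set that carries its symbol alone. The annotation used here gave such a probe set to 32 of the 33, out of 18194 genes on the arrays, and Ccnb1 (cyclin B1) was not analysed here. The 32 genes had 75 probe sets out of 45101. All 32 passed the filter on low values, a mean log2 intensity of at least 4 over the 6 arrays.

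The testes came from E13.5 mouse embryos of stock outcrossed to 129S6/SvEvTac, an age at which testis cords are newly built, and the whole organ was measured. The control group held 3 testis samples, called wild type in their titles and Dmrt1 (+/-) in their descriptions and genotype entries. The null group held 3 testis samples, Dmrt1 (-/-) by title and description, whereas the genotype entry gives floxed alleles without naming a Cre. Dmrt1 encodes a DM domain transcription factor of Sertoli cells and germ cells, and the series concerns mutants in which teratomas are frequent. Samples are labelled as biological replicates, with no word on whether animals were pooled, and p-values measure the spread between these samples.

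The sample labels were checked on Dmrt1, which had intensities of 696, 1030 and 796 in controls and 48.4, 26.9 and 23.8 in nulls. Array medians lay between 14.6 and 14.8. Markers of Sertoli cells (Sox9, Amh, Wt1) and germ cells (Ddx4, Dazl) were present on all arrays. The marker lists of blood vessels and Leydig cells varied widely between samples of a group, and control replicate 2 stood apart with low endothelial and erythroid levels. Null replicate 3 had the highest ratio of 3' to 5' signal, at 2.75 for the Actb control probe sets against 1.91 to 2.15 on the other arrays. In whole testis, a change in the number of dividing cells and a change in RNA per dividing cell cannot be told apart.

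Before S phase the MCM helicase is loaded onto replication origins, and E2F factors switch on the genes that supply it and the nucleotides. Later, FOXM1 and B-MYB with the MuvB complex switch on the genes of mitosis, whose products are read as a measure of how many cells divide. At this stage the Sertoli cells of the fetal testis multiply, and the male germ cells are leaving the cell cycle for a long arrest. Many promoters of replication genes carry E2F motifs, and many promoters of mitosis genes carry a motif called CHR, for cell cycle genes homology region, together with CCAAT boxes.

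RefSeq promoter windows (build GRCm38.p6, 250 bases before to 50 after the gene's start) were read for 26 of the 32 genes. No window was read for Aurkb, Ccna2, Foxm1, Mcm4, Kif20a and Cdc25c, and the last also had groups that did not overlap. Windows on a single chromosome were left out for the 32 genes but kept in the shares over all genes. The E2F motif was searched as TTTCCCGC, TTTCGCGC, TTTGCCGC or TTTGGCGC, the CHR as TTTGAA and the CCAAT box as CCAAT, each on both strands. Sequences are shown for Mcm2, Mcm3, Mcm6, Pcna and Cenpa, whose null and control values did not overlap, for Mcm5 as a further helicase subunit, and for Cdk1 and Kif11 as mitosis genes with a CHR close to the start. Each runs 5′ to 3′ along the gene from position -160 to -1 before the start, with motif letters in capitals on whichever strand the match was found.
Mcm2, chr6:88898781-88898940, minus strand: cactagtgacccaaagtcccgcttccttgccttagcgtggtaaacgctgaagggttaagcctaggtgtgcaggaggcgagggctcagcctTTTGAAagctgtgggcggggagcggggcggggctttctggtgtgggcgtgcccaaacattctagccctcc
Mcm3, chr1:20820313-20820472, minus strand: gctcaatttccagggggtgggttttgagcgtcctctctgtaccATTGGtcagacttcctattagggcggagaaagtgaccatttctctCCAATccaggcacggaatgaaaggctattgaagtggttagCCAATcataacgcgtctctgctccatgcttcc
Mcm5, chr8:75109349-75109508, plus strand: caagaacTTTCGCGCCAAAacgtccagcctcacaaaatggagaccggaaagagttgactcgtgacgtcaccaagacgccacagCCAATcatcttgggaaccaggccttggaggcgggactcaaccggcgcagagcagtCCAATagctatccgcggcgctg
Mcm6, chr1:128359706-128359865, minus strand: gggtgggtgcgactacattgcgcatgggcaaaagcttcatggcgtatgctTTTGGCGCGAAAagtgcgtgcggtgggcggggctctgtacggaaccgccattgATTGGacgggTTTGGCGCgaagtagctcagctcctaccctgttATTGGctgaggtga
Pcna, chr2:132253181-132253340, minus strand: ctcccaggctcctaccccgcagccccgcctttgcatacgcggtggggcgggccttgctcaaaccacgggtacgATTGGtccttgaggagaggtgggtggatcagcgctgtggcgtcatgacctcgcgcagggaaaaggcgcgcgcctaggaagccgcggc
Cenpa, chr5:30666726-30666885, plus strand: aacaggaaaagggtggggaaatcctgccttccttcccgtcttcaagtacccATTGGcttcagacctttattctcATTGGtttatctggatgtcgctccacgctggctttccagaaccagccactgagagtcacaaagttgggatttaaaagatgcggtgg
Cdk1, chr10:69352913-69353072, minus strand: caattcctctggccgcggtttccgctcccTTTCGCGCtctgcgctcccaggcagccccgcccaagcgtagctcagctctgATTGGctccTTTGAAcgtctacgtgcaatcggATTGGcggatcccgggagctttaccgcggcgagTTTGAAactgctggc
Kif11, chr19:37376222-37376381, plus strand: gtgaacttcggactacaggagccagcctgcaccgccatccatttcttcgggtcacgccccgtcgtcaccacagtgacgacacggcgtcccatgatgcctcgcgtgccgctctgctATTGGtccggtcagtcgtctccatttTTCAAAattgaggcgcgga

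An E2F motif lay in the windows of 7 of the 26 genes, or 26.9%, against 2.6% of all 27025 genes with a window and 3.29% of protein-coding genes. The replication group held 4 of these 7, namely Mcm3, Mcm5, Mcm6 and Mcm7. In Mcm6 and in Mcm5 a pair of E2F motifs on opposite strands overlapped, starting at -110 and -106 in Mcm6 and at -153 and -149 in Mcm5, and these are the longest runs of capitals above. Mcm6 held a further E2F motif at -47. The E2F motifs of Mcm3 lay after the start, outside the stretch shown. Cdk1, the kinase that drives entry into mitosis, held an E2F motif at -131 and CHR letters at -71 and -15. The CHR letters were in 11 of the 26 genes, or 42.3%, against 20.2% of all genes. They were in 4 of 6 kinase and checkpoint genes and 4 of 5 motor, centromere and chromosome genes, and in Mcm2 alone of 6 replication genes. A CCAAT box was in 22 of the 26, or 84.6%, against 41.1% of all genes. Short words such as these are frequent, and a match is not a bound site.

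No gene of S phase or mitosis passed the test between null and control testes. The question was whether transcripts of replication and division differ between the groups. By limma with Benjamini-Hochberg adjustment over 22082 probe sets, 0 of 32 genes were called at an adjusted p under 0.05, with adjusted p-values from 0.773 to 0.994. The same test called 6 probe sets in all, 0.0272% of those tested. At an unadjusted p under 0.05 there was 1 of the 32, Cdc25c, which was higher in the null, against 2.75% of all probe sets in that direction, 3.28% in the other and 6.04% in either. Most differences were small and above 0. Null minus control was above 0 for 27 of 32 genes, with a median log2 difference of 0.07 and a range of -0.13 to 0.32. Over all probe sets tested 51.9% lay above 0 and the median was 0.01. Over the brightest probe set of each of 11874 genes, 56.3% lay above 0 and the median was 0.03. The 95% confidence intervals of the 32 genes all fell between -0.44 and 0.75 on the log2 scale.

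**Figure D1:**
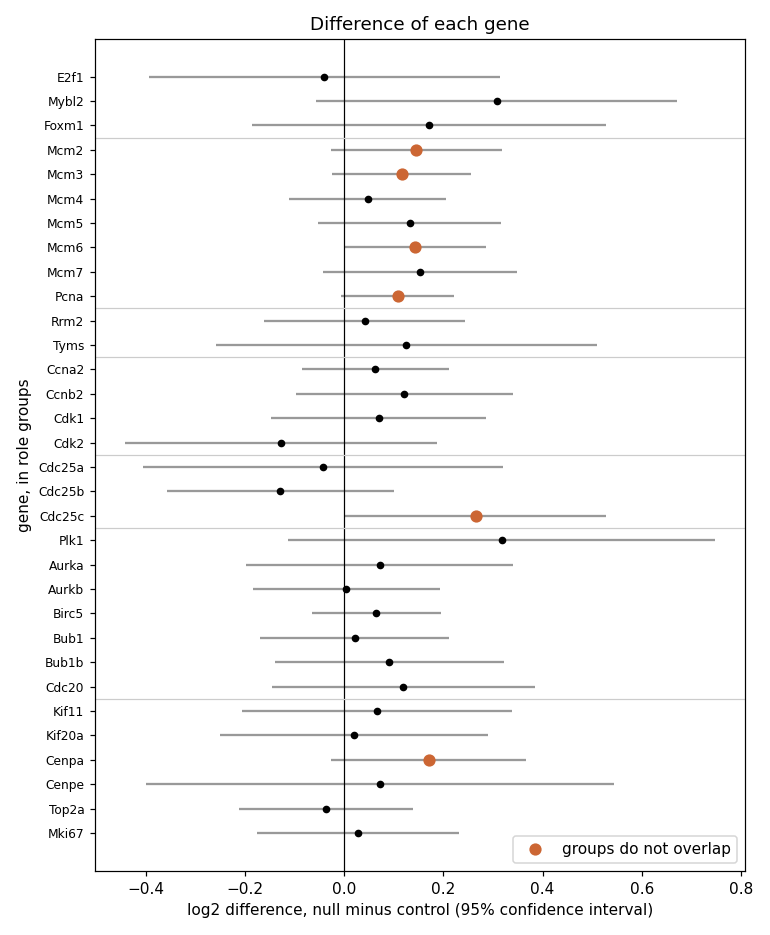
Log2 difference of null minus control for each of the 32 genes (x axis) in role groups (y axis, separated by grey lines), points with 95% confidence intervals from limma, n = 3 per group. Most points lie right of 0, and the 6 genes whose groups did not overlap are in orange.

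The groups did not overlap at 6 of the 32 genes, all higher in the null, against 6.73% of all probe sets tested in that direction. These were Mcm2, Mcm3, Mcm6, Pcna, Cdc25c and Cenpa, of which 5, all but Pcna, were read from probe sets of the s, x or a type. The other tested probe sets of Mcm2, Mcm6, Cdc25c and Cenpa had groups that overlapped, with differences of 0.11, 0.03, 0.20 and 0.05, and of the 4 others of Mcm3 only that at 0.19 did not overlap. None of the 32 had all nulls below all controls, against 6.06% of all probe sets. Leaving out each array in turn kept the difference above 0 every time at 16 genes and below 0 every time at 2, Cdk2 and Cdc25b, and the sign changed at the other 14. The median difference was 0.04 without control replicate 2, where 21 of 32 lay above 0, and 0.11 without control replicate 3, where 27 did. With arrays weighted by their quality it was 0.05, and 25 lay above 0.

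In the replication group all 7 genes, the helicase subunits Mcm2 to Mcm7 and the sliding clamp Pcna, had differences above 0, with a median of 0.13 (0.08 to 0.18 as each array was omitted), and 0 of the 7 were called. Mcm2, a subunit of the helicase that opens origins, gave 2850, 2760 and 2870 in the controls and 3070, 2890 and 3440 in the nulls, in the order of replicates 1 to 3 that is kept throughout. Every null was above every control, the lowest null by little, and null replicate 3 was the highest. Its log2 difference was 0.15 ± 0.07 (standard error, limma adjusted p = 0.773, n = 3 per group), and 0.08 without null replicate 3.

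Mcm6 gave 5000, 5190 and 5140 in controls and 6080, 5200 and 5670 in nulls. Null replicate 2 barely exceeded the controls, while null replicate 1 was the highest, so the array that stood out was not the one that did so for Mcm2. The difference of Mcm6 was 0.14 ± 0.06 (standard error, limma adjusted p = 0.773, n = 3 per group), 0.09 without null replicate 1, and 0.03 by its other, plain probe set. Pcna, the clamp that holds DNA polymerase on its template, gave 4460, 4690 and 4420 in controls and 5020, 4740 and 4860 in nulls. The groups did not overlap, again with null replicate 2 nearest to the controls. Pcna had a difference of 0.11 ± 0.05 (standard error, limma adjusted p = 0.773, n = 3 per group). Its 95% interval ran from -0.01 to 0.22, among the narrowest of the set.

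Mcm3 gave 3320, 3220 and 3330 in controls and 3490, 3410 and 3810 in nulls. The groups did not overlap for Mcm3, with null replicate 3 highest and a difference of 0.12 ± 0.06 (standard error, limma adjusted p = 0.774, n = 3 per group), or 0.07 without that array. Mcm5 and Mcm7 had differences of 0.13 and 0.15, with groups that overlapped. Of the other probe sets of Mcm5, that at 0.20 had groups that did not overlap and that at 0.09 had groups that did. Mcm7 was at 2820 in null replicate 2, as low as in control replicate 1, and at 3380 and 3460 in the other nulls. Mcm4 was the closest to 0 of the helicase subunits, at 0.05, and its highest value, 7330, was in control replicate 1.

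**Figure D2:**
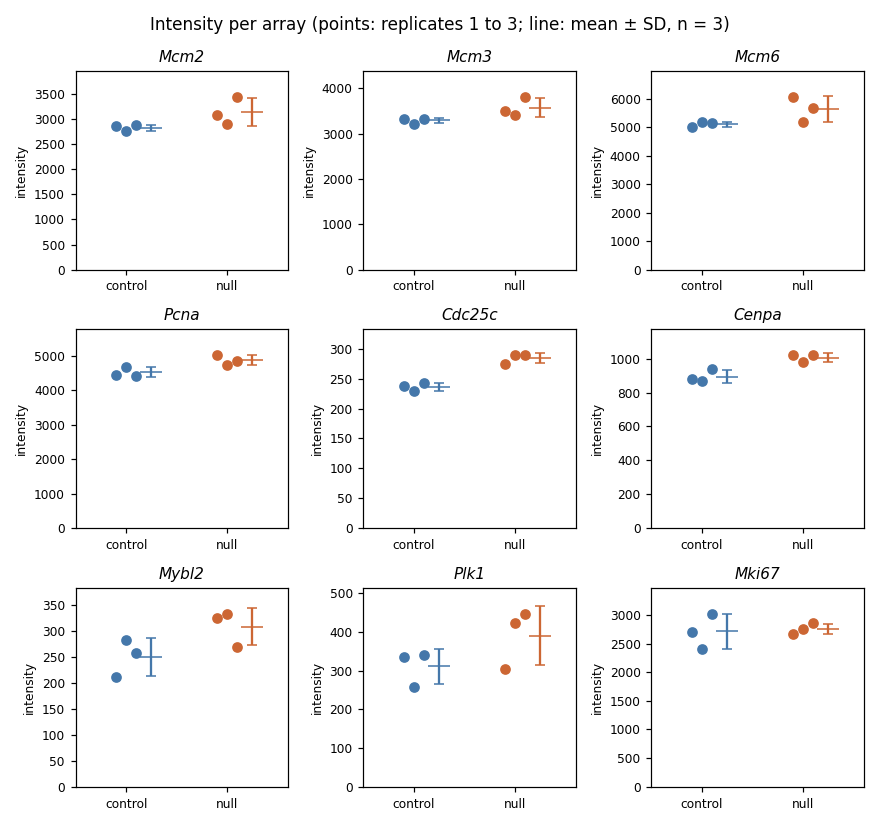
Intensity (linear y axis from 0) of 9 genes in control and null testes, a point per array in the order of replicates 1 to 3, with the mean and SD of each group beside them (n = 3). Mcm2, Mcm3, Mcm6, Pcna, Cdc25c and Cenpa have all nulls above all controls, and Mybl2, Plk1 and Mki67 overlap.

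Rrm2 and Tyms supply nucleotides, as a subunit of ribonucleotide reductase and as thymidylate synthase. The differences were 0.04 for Rrm2 and 0.13 for Tyms, neither called. Tyms gave 68.2, 51.4 and 68.0 in controls and 65.2, 65.2 and 72.8 in nulls. Control replicate 2 alone was low, and without it the difference of Tyms was -0.01 (limma adjusted p = 0.993). The other 3 Tyms probe sets lay below the filter.

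Of the transcription factors that drive these genes, Mybl2, which encodes B-MYB, had one of the larger differences. It gave 211, 283 and 258 in controls and 325, 334 and 269 in nulls. Null replicate 3 lay within the range of the controls, and null replicates 1 and 2 lay above it. The difference of Mybl2 was 0.31 ± 0.16 (standard error, limma adjusted p = 0.773, n = 3 per group), between 0.19 and 0.41 with single arrays left out. Foxm1, the forkhead factor of mitosis genes, gave 107, 99.0 and 108 in controls and 103, 115 and 138 in nulls. Only null replicate 3 was well above the controls, and without it the Foxm1 difference of 0.17 was 0.06. E2f1, an activator of S phase genes, had a difference of -0.04 with its highest value, 341, in control replicate 2.

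The cyclins and their kinases differed little. Ccna2, the cyclin of S phase and early mitosis, gave 2210, 2090 and 2250 in controls and 2220, 2310 and 2310 in nulls. These values overlapped, and the difference was 0.06 ± 0.06 (standard error, limma adjusted p = 0.853, n = 3 per group), or 0.03 without control replicate 2. Ccnb2, a mitotic cyclin, gave 1720, 1950 and 2030 in controls and 2270, 1930 and 2000 in nulls. Null replicate 1 was the highest and the other nulls lay among the controls, with a difference of 0.12 ± 0.09 (standard error, limma adjusted p = 0.813, n = 3 per group). Omitting replicate 1 of either the controls or the nulls brought the Ccnb2 difference to 0.05, and array weights brought it to 0.03. Cdk1 had a difference of 0.07 and Cdk2, the kinase of S phase entry, one of -0.13, with the lowest Cdk2 value, 262, in null replicate 1.

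The Cdc25 phosphatases, which activate the cyclin-dependent kinases, differed in sign among themselves. Cdc25c gave 237, 229 and 243 in controls and 274, 289 and 289 in nulls. Every null exceeded every control by more than the spread within either group. The difference of Cdc25c was 0.27 ± 0.11 (standard error, unadjusted p = 0.0482, limma adjusted p = 0.773, n = 3 per group), a ratio of 1.20, and 0.24 to 0.29 with single arrays left out. Cdc25b gave 1160, 1120 and 1270 in controls and 1190, 1050 and 1010 in nulls. Null replicates 2 and 3 were below all controls, whereas null replicate 1 was among them, and the difference was -0.13 ± 0.10 (standard error, limma adjusted p = 0.813, n = 3 per group), between -0.20 and -0.08 as each array was omitted. Cdc25a, which acts at S phase entry, had a difference of -0.04.

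Among the mitotic kinases and checkpoint genes all 7 differences lay above 0, with a median of 0.07 (0.04 to 0.11 as each array was omitted), and 0 were called. Plk1, a kinase of spindle and centrosome, had the largest difference of the 32 genes. It gave 334, 259 and 341 in controls and 303, 422 and 447 in nulls. Null replicates 2 and 3 were above the controls and null replicate 1 was inside their range, so the groups overlapped. The difference of Plk1 was 0.32 ± 0.19 (standard error, limma adjusted p = 0.778, n = 3 per group), between 0.19 and 0.49 with single arrays left out. Birc5, which encodes survivin of the chromosomal passenger complex, gave 6570, 5930 and 6770 in controls and 6530, 6820 and 6780 in nulls. Control replicate 2 was low and the others were close together, with a difference of 0.07 and 0.01 without that array. Aurka and Aurkb, the Aurora kinases, had differences of 0.07 and 0.00. Bub1 and Bub1b, of the spindle checkpoint, had 0.02 and 0.09, and Cdc20, the activator of the anaphase-promoting complex, had 0.12.

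The last group holds spindle motors, centromere proteins and proteins of the condensed chromosome. Cenpa, the histone variant of the centromere, gave 881, 866 and 936 in controls and 1020, 978 and 1020 in nulls. Every null was above every control for this Cenpa probe set, with a difference of 0.17 ± 0.09 (standard error, limma adjusted p = 0.773, n = 3 per group). As the mean over all probe sets of Cenpa, including one below the filter at -0.04, the difference was 0.06. Kif11, the motor that pushes spindle poles apart, gave 935, 944 and 1100 in controls and 913, 1060 and 1150 in nulls. The groups overlapped widely, with a difference of 0.07 that was -0.01 without null replicate 3. Mki67, the gene of the proliferation marker Ki-67, gave 2700, 2410 and 3020 in controls and 2660, 2750 and 2850 in nulls. All nulls lay inside the range of the controls. The difference of Mki67 was 0.03 ± 0.09 (standard error, limma adjusted p = 0.952, n = 3 per group), with a 95% interval of -0.18 to 0.23, and -0.05 without control replicate 2. Top2a, the topoisomerase that untangles chromosomes, had a difference of -0.04, Kif20a, a motor of cytokinesis, one of 0.02 and Cenpe, a kinetochore motor, one of 0.07.

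**Figure D3:**
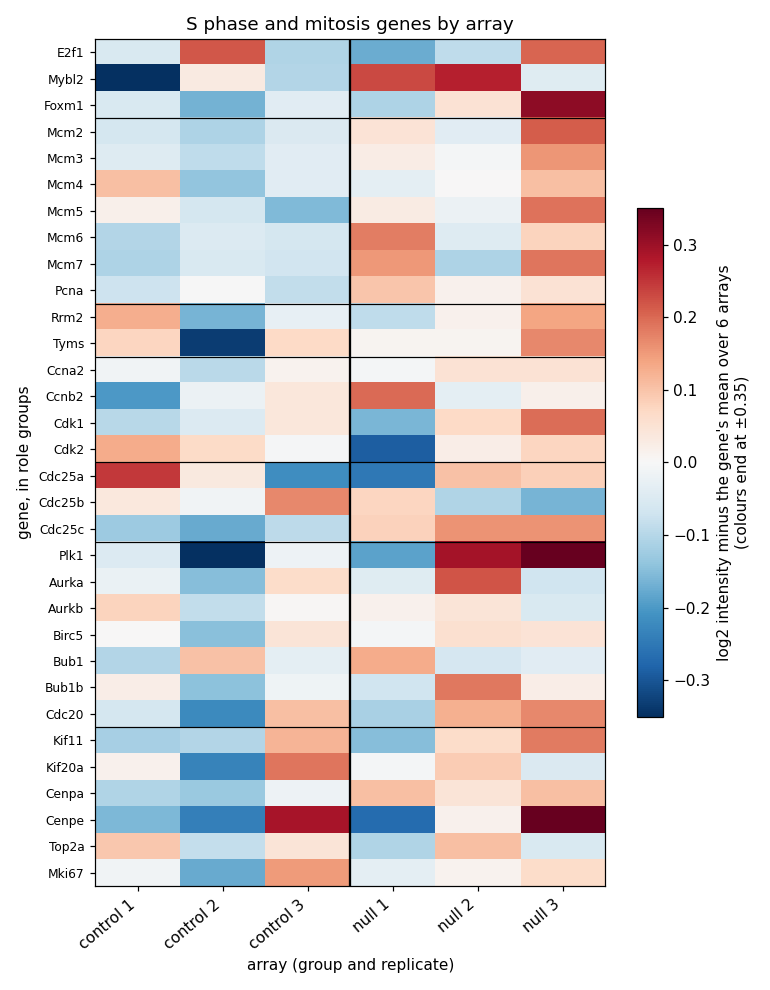
Log2 intensity of each of the 32 genes (rows, in role groups) minus its mean over the 6 arrays, for each array (columns), as colour from blue (low) to red (high). Control replicate 2 is the lowest array for 17 genes and null replicate 3 the highest for 12.

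The same arrays were high or low for many of the genes. Control replicate 2 was the lowest array for 17 of the 32 genes, and null replicate 3 was the highest for 12. As the median over the 32 genes of log2 intensity minus the gene's mean over the 6 arrays, the controls were at -0.05, -0.10 and -0.02 (replicates 1 to 3) and the nulls at -0.01, 0.03 and 0.09. The control level nearest to the nulls, in replicate 3, was close to that of null replicate 1. The replication group was at -0.06 in all 3 controls and at 0.05, -0.02 and 0.15 in the nulls, so the controls were alike and the nulls spread. The kinase and checkpoint group was at -0.02, -0.15 and 0.00 in controls and -0.04, 0.12 and 0.02 in nulls, and there the groups overlapped. The difference between the replication group and the kinase group was not tested.

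Markers of the other cells of the testis were read on the same arrays. Of 8 endothelial markers 7 were higher in the null, and 0 of 8 without control replicate 2, where their median difference went from 0.18 to -0.23. Their summed intensity ran from 1456 to 3963 in controls and from 2207 to 4217 in nulls, lowest in control replicate 2. The median endothelial level was 0.32, -1.11 and 0.34 in the controls and -0.51, 0.27 and 0.46 in the nulls. Control replicate 2 and null replicate 1 were lowest for these markers and for the kinase and checkpoint group. Null replicate 2, highest for that group at 0.12, was below control replicates 1 and 3 for the endothelial markers. Of the fetal Leydig markers, Cyp17a1, Cyp11a1, Hsd3b1 and Star were lower in the null, each with groups that overlapped. The probe set read for Insl3 carries the symbol Rlf and may measure another gene. That probe set was also lower, and it is included in the Leydig sums of 4816 to 11205 in controls and 4047 to 13668 in nulls. Of 4 erythroid markers tested 4 were higher, and 2 without control replicate 2, with sums of 920 to 4630 over the 5 measured in controls and 2142 to 3973 in nulls. Of 13 germ cell markers tested 8 were lower, with sums of 14974 to 22815 over the 14 measured in controls and 15016 to 18029 in nulls. Without control replicate 2, 9 of the 13 germ cell markers were higher, and their median difference went from -0.18 to 0.09. Of 8 macrophage markers 8 were lower, with sums of 2484 to 3073 in controls and 2088 to 2478 in nulls. Of 13 Sertoli markers 6 were lower and 7 higher, with a median difference of 0.01 and sums of 25683 to 27338 in controls and 21747 to 23666 in nulls. Among the lower ones, group means went from 3147 to 1063 for Cst9 and from 5773 to 4290 for Aard, which weigh heavily in these sums. Of 6 interstitial and peritubular markers measured 4 were lower, with sums of 19058 to 20019 in controls and 17882 to 18584 in nulls. No measured marker was at 0, but Tdrd1 and Hba-a1 lay below the filter on low values and are included in the sums. Null replicate 3, highest for 12 cell cycle genes, also had the highest Gapdh ratio of 3' to 5' signal, 1.87 against 1.55 to 1.59. Without control replicate 2 and null replicate 1 together, a setting chosen after seeing the data, 26 of the 32 cell cycle genes lay above 0, with a median of 0.10 and 0 called. Without null replicate 3, 23 of the 32 lay above 0, with a median of 0.06. The part of cell composition and RNA quality in the differences was not tested.

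**Figure D4:**
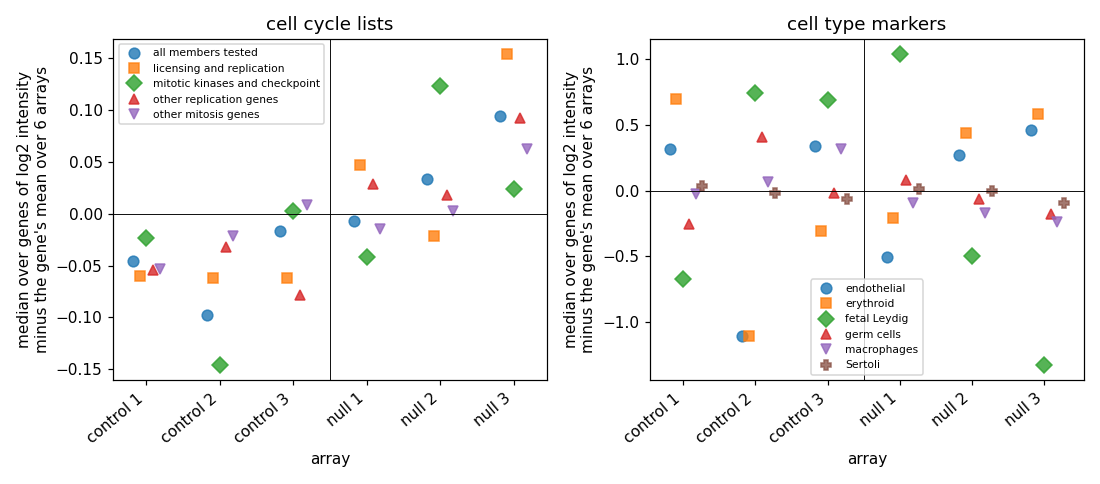
Median over the genes of a list of log2 intensity minus each gene's mean over 6 arrays (y axis), per array (x axis), for cell cycle lists on the left and cell type markers on the right, on different y scales. The replication group is at -0.06 in every control, and the endothelial markers fall to -1.11 in control replicate 2.

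Several probe sets per gene gave a check on single probes. Of the 75 probe sets of these genes 62 passed the filter, 52 with a difference above 0 and 10 below, and 0 were called. At an unadjusted limma p under 0.05 there was 1, higher in the null, against 2.75% of all probe sets tested in that direction. The groups did not overlap at 8 of the 62, all higher in the null, against 6.73% of all probe sets tested in that direction. Of 20 genes with several tested probe sets, 14 had all of them above 0, 1 had all below and 5 were mixed. The mixed genes were Mcm3, Mcm4, E2f1, Kif11 and Cenpe. Mcm3 had 5 probe sets, from -0.18 to 0.19, and Kif11 had 3, from -0.23 to 0.07. All 4 probe sets of Mcm7 lay above 0, from 0.00 to 0.20, as did all 3 of Mcm5, from 0.09 to 0.20. The 2 of Mcm6 were at 0.03 and 0.14. The brightest probe set was of a shared or variant type (s, x or a) for 18 of the 32 genes, and the s and x types can bind related transcripts. With the brightest plain probe set in their place, 23 genes remained to be read, 20 of them above 0, with a median of 0.07.

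**Figure D5:**
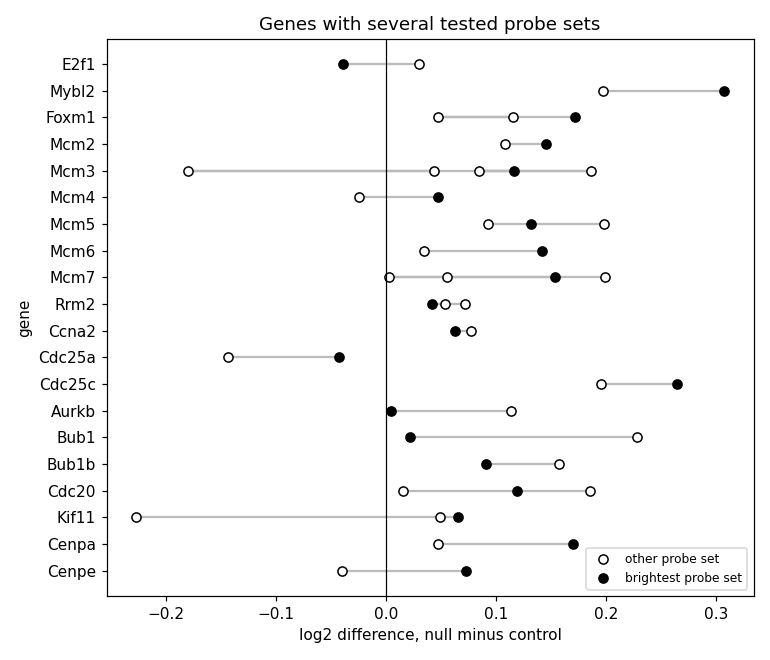
Log2 difference of null minus control (x axis) for every tested probe set of the 20 genes that have several (y axis), the brightest filled and the others open, joined by a grey line. Probe sets of 14 genes lie wholly above 0, and those of Mcm3 and Kif11 span 0 most widely.

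Other genes of the same processes were read from lists of pathway members. Of 49 further replication genes tested, 39 had differences above 0, with a median of 0.10 (0.09 to 0.13 as each array was omitted), and 0 were called. The smallest p-values belonged to Chaf1b, a chromatin assembly factor subunit, at 0.44, Pola1, the catalytic subunit of DNA polymerase alpha, at -0.32, and Rfc2, a clamp loader subunit, at 0.26, each with a limma adjusted p of 0.773. At an unadjusted limma p under 0.05 there were 4, or 8.16%, of which 3 were higher, against 6.04% of all probe sets tested. Of 59 further mitosis genes tested, 41 had differences above 0, with a median of 0.04 (0.01 to 0.07 as each array was omitted). None were called, and 3, or 5.08%, had an unadjusted limma p under 0.05, against the same 6.04%. Lmnb1, a nuclear lamin, was at -0.31, Spc25, a kinetochore protein, at 0.24 and Cdca3, a trigger of mitotic entry, at 0.20, each with a limma adjusted p of 0.773. The G1 cyclins, their kinases and the brakes of the cycle had 6 of 17 above 0 and a median of -0.05 (-0.05 to 0.02 as each array was omitted). In that list 0 were called, and the smallest limma adjusted p was 0.773. An unadjusted limma p under 0.05 was found for 2, or 11.8%, with 1 higher and 1 lower, against the same 6.04%. The smallest p-values there were for Rb1, the retinoblastoma brake, at -0.51, Cdk4, a G1 kinase, at 0.11 and E2f5, a repressive E2F, at 0.24. Differences between these lists were not tested.

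The precision of these values differed between genes. The median standard error of the 32 genes was 0.09 on the log2 scale, against 0.15 over all probe sets tested, and the median SD within groups was 0.12 against 0.18. These genes were also brighter, with a median log2 level of 10.4 against 7.90, and the part of brightness in the precision was not tested. For Ccna2 the 95% interval was -0.09 to 0.21, a ratio of null to control between 0.943 and 1.16, and for Mki67 the ratio was between 0.886 and 1.17. The widest interval belonged to Cenpe, with ratios from 0.758 to 1.46, and that of Plk1 ran from 0.925 to 1.68.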

How the data were processed

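RNA of 6 testis samples was measured on oligonucleotide arrays. The deposited table holds linear intensities that the authors computed with GCRMA, per the submitters' processing notes; its version is not stated in the labels. This method adjusts background by probe sequence, equalises arrays and merges probes into probe sets, which can compress or stretch folds of dim genes. Arrays were grouped by their titles. Intensities were taken to log2 with no constant added. Probe sets with a mean log2 of at least 4 were kept, 22082 of 45101. Null and control were compared by limma 3.58.1 (R 4.3.3), two-sided, in a model of group alone with an intensity-dependent prior in eBayes, and p-values of all kept probe sets were adjusted by Benjamini-Hochberg and called at 0.05. The script was tested on simulated data.

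GEO's platform annotation gave 34958 probe sets 1 gene symbol, 932 several and 9211 none. The members, the role groups and the pathway and marker lists were chosen with earlier results of these data known, so lists are described by counts and medians without a test. Values per array are given for the members with the smallest p in each role group, 2 per group and 1 for the pair, and for Mki67. Mcm2 and Mcm3 were added because their groups did not overlap, chosen after their values were seen, as were the promoters shown and single values of other members. Motif positions count back from the start, the base before it being -1. Alternatives covered the filter, normalization, added constant, eBayes options, array weights, replicate number, single arrays, probe set choice and threshold. Between any 2 arrays 301 to 451 values were equal, so none is a copy. The number of arrays limits the precision.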

Additional observations from a re-analysis of the deposited data

How the results depend on the processing

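No S phase or mitosis gene was called under any of the 19 alternatives tried, 18 of them fixed beforehand. The median difference of the tested members was above 0 in each, from 0.039 to 0.114. The other filters kept all 32 members. Like the eBayes options, the replicate block and the looser threshold, they could not move these differences, so the median of 0.072 there was fixed in advance. The number of members above 0 ran from 21 of 32 to 28 of 32 when single arrays were left out. The number of probe sets called in the whole table, 6, was 1 with eBayes without the trend, 0 with the replicate number as a block, and 0 to 5 with single arrays left out. With the replicate block 0 members were called. Same-numbered arrays did not deviate together, with correlations over probe sets of -0.59, -0.34 and 0.14 for replicates 1, 2 and 3, so the numbers were not taken as pairs. Between controls and nulls of different number the correlations ran from -0.40 to 0.58, highest for control replicate 2 with null replicate 1. Some uncalled differences changed sign. Mki67, at 0.028 with all arrays, ran from -0.053 to 0.11 with an array omitted, and was at -0.071 with array weights and -0.029 without control replicate 2 and null replicate 1 together. Kif11 ran from -0.0094 to 0.16 with an array omitted, and was at -0.0086 with array weights and -0.038 as the mean over its probe sets. Tyms ran from -0.0098 to 0.19 with an array omitted. The other 11 members followed through the alternatives kept their sign, but they had been picked for the smallest p in their role groups. Of all 32 members tested, 14 changed sign as single arrays were left out. The causes were not tested. With 3 arrays per group the median standard error of the members was 0.09 on the log2 scale.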

Other observations

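Control replicate 3 and null replicate 2 share a leading number in their descriptions, and the labels do not say what that number means. The median level of the S phase and mitosis genes, relative to each gene's mean over the 6 arrays, was -0.02 in the former and 0.03 in the latter.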
